A study of Mus musculus with 12 samples.

Results

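Livers with both activations of Nrf2 at once, hepatocyte deletion of Keap1 and a dose of CDDO-Im, were compared with livers that had neither. The comparison takes 6 of the 12 livers of the series, 3 labelled conditional Keap1 knockout (CKO) mice given CDDO-Im (replicates 2, 3 and 4) against 3 genetic control (WT) mice given vehicle (replicates 1, 2 and 3). Its size was set beside each single activation, for which the other 6 livers are needed, 3 of CKO mice given vehicle and 3 of WT mice given CDDO-Im. All mice were 9-week-old males on a C57Bl/6J background and carried the Albumin-Cre transgene, whose promoter directs the recombinase to hepatocytes. The CKO mice had a floxed and a null Keap1 allele, and the WT mice had a floxed and a wild-type allele, so the controls also carry an allele that Cre can delete and do not stand for an unaltered Keap1 locus. CDDO-Im, an imidazolide made from oleanolic acid, was given by gavage at 30 umol/kg in a vehicle of DMSO, Cremophor-EL and PBS, the other mice received the vehicle, and livers were taken 6 h later. Total RNA of each whole liver was measured on 1 Affymetrix mouse array. The labels do not say how the mice relate to litters or cages, so whether the livers are independent is not known. The p-values weigh differences between group means against the spread between livers within groups, and take the livers as independent. Below, the WT vehicle livers are called the controls, and values with both activations, with the deletion alone and with the drug alone are those of the CKO CDDO-Im, CKO vehicle and WT CDDO-Im livers.

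Keap1 is an adaptor protein that brings the transcription factor Nrf2 (gene symbol Nfe2l2) to a ubiquitin ligase, and Nrf2 is degraded as long as the pair holds together. Electrophiles modify cysteines of Keap1, and Nrf2 then escapes, pairs with a small Maf protein and binds antioxidant response elements near genes for glutathione synthesis, quinone reduction, conjugation and export. In liver this programme is known for its protection against reactive drug metabolites. CDDO-Im acts on Keap1 itself, so a hepatocyte without Keap1 lacks the drug's main known sensor, while Nrf2 in that cell has been active for long before the dose.

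Values are log2 signals, so that a difference of 1 is a doubling, and 8338 genes with at least 3 arrays above a log2 signal of 5 were tested. Linear folds are given where both group means reached 5, since lower values lie near the floor set by the background correction. Array medians lay between 2.32 and 2.34 over all 45101 probe sets, near the background floor, so they say little on how alike the arrays were. Over the genes tested the medians ran from 8.52 (WT CDDO-Im replicate 2) to 8.66 (WT vehicle replicate 2). The lowest correlation between replicate livers was 0.996. The hepatocyte markers Alb, Apoa1, Ttr and Cps1, for the main plasma proteins and the urea cycle, lay between 15.5 and 16.1 in every liver. For Keap1 itself, the probe set used in the tests read 7.15, 7.48 and 6.58 in the controls and 6.28, 6.29 and 6.45 with both (change -0.73 ± 0.20 SE, adjusted p = 0.0503, not called). A second Keap1 probe set read 8.17, 7.92 and 7.94 in the controls and 3.31, 3.09 and 2.90 with both, and its groups stood far apart as labelled. Which probe set lies in the deleted exons was not determined here. Each comparison was refitted without each of the 12 livers in turn, and where a call was lost, the liver whose removal gave the highest adjusted p is named beside it. In whole liver, fewer cells of a type and less RNA per cell cannot be told apart.

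The combined change was wider than the change with CDDO-Im alone and close in size to the change with the deletion alone. Distances between pairs of livers, as the root-mean-square log2 difference over the tested genes, ran from 0.545 to 0.617 (median 0.582, 9 pairs) between WT vehicle and CKO CDDO-Im livers. The 9 pairs of WT vehicle and CKO vehicle livers ran from 0.536 to 0.594 and overlapped that range. The 9 pairs of WT vehicle and WT CDDO-Im livers ran from 0.424 to 0.535, below all of the combined pairs. Livers of the same group lay 0.287 to 0.431 apart, and the 9 pairs of CKO vehicle and CKO CDDO-Im livers, at 0.355 to 0.426, lay within that range. These pairs share livers, so the distances are a description with no test.

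**Figure D1:**
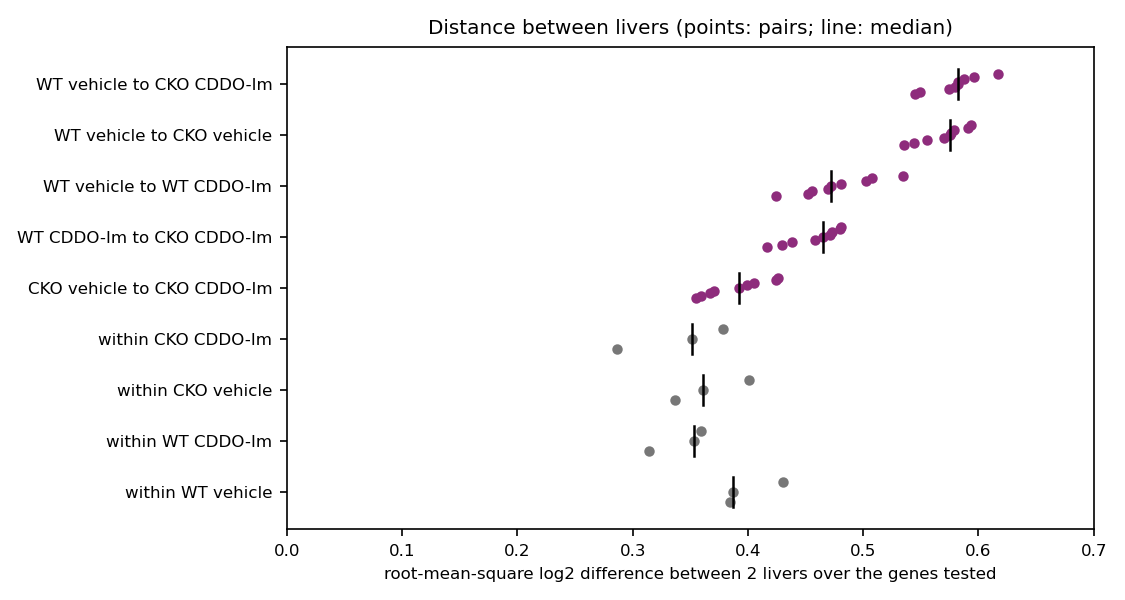
Root-mean-square log2 difference between pairs of livers over the 8338 genes tested (x axis), by the groups the pair comes from (rows), with 1 point per pair and the median as a line. Pairs of WT vehicle and CKO CDDO-Im livers (median 0.582) overlap pairs of WT vehicle and CKO vehicle livers (median 0.576), and both lie above pairs of WT vehicle and WT CDDO-Im livers (median 0.472).

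Of the genes tested, 683 were called in the combined comparison (8.19%), with 289 rises (3.47%) and 394 falls (4.73%) that had an adjusted p under 0.05. Among them 115 rose and 122 fell at least 2-fold, and 40 rose and 22 fell at least 4-fold. With the deletion alone 543 genes were called (6.51%), 271 up (3.25%) and 272 down (3.26%), and with the drug alone 304 were called (3.65%), 157 up (1.88%) and 147 down (1.76%). These 3 comparisons share the WT vehicle livers, so their counts are only set side by side. The split between rises and falls depended on scaling: centring each array on its median gave 407 rises and 307 falls in the combined comparison, and quantile normalization gave 363 and 340. Leaving out CKO CDDO-Im replicate 3 lowered the combined count to 358, and leaving out CKO CDDO-Im replicate 4 lowered it to 381.

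**Figure D2:**
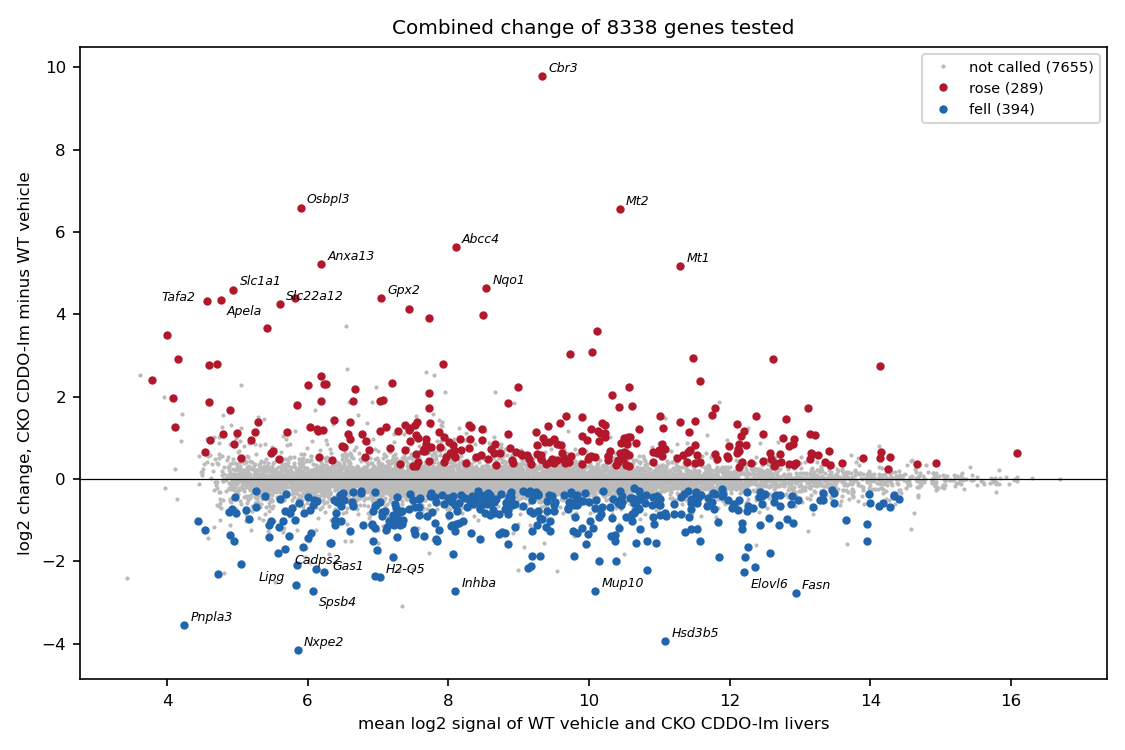
Combined change (y axis, log2 of CKO CDDO-Im minus WT vehicle) of each of the 8338 genes tested against its mean log2 signal in those 6 livers (x axis). Red points are the 289 genes that rose and blue points the 394 that fell, and names mark the 12 largest rises and 12 largest falls among genes named by rule. Cbr3 stands highest at 9.80 and Nxpe2 lowest at -4.16, each with 1 of its 2 group means near the background floor.

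Direct tests of the combined group against each singly treated group gave different counts. Between CKO CDDO-Im and CKO vehicle livers, limma called 0 of 8338 genes (lowest adjusted p = 0.225), with 790 genes at an unadjusted p under 0.05. The drug given on top of the deletion therefore had no called gene at this number of mice, which does not show that the 2 groups were alike. Between CKO CDDO-Im and WT CDDO-Im livers 128 genes were called (1.54%), 62 higher (0.744%) and 66 lower (0.792%) with the deletion. A further test asked whether the combined change differed from the sum of the single changes on the log2 scale, and 23 genes were called (0.276%). The departure was negative in 21 (0.252%) and positive in 2 (0.024%), and all 23 fell short of the sum. Without WT CDDO-Im replicate 3 the 128 became 32, and without CKO CDDO-Im replicate 2 the 23 became 2.

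Genes of quinone and carbonyl reduction, the classic Nrf2 targets, held the largest rise. Cbr3 on chromosome 16, a carbonyl reductase, read 3.14, 7.16 and 3.01 in the controls and 14.1, 14.0 and 14.6 with both. WT vehicle replicate 2 lay well above the other two controls, and still far below every liver with both activations. The mean of the controls, 4.44, lay near the background floor, so the size of the Cbr3 rise depends on the background correction. The combined change was 9.80 ± 0.88 (SE, adjusted p = 0.000212), beside 10.11 ± 0.88 with the deletion alone and 5.87 ± 0.88 with the drug alone. Nqo1 on chromosome 8, the NAD(P)H quinone reductase, read 5.18, 6.53 and 6.96 in the controls and 10.8, 10.7 and 11.1 with both. It rose 24.8-fold with both (log2 4.63 ± 0.35, adjusted p = 6.58e-05), beside 29.1-fold with the deletion alone and 10.9-fold with the drug alone. CKO vehicle livers read 11.04, 11.16 and 11.05 for Nqo1, overlapping the livers that also had the drug (difference -0.23 ± 0.35, adjusted p = 0.877). Of the 19 quinone and carbonyl reductases tested, 6 rose and none fell in the combined comparison, with a median log2 change of 0.23 against -0.03 over all genes tested. With the deletion alone 4 rose and 1 fell, and with the drug alone 6 rose. Named after their values were seen, Cbr1, a carbonyl reductase beside Cbr3, changed by 2.91 ± 0.16 with both (adjusted p = 7.75e-06), while Akr1b8, of the aldo-keto reductase family, changed by 2.80 ± 0.41 (adjusted p = 0.00318).

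The metallothioneins Mt1 and Mt2, small cysteine-rich proteins that bind zinc and copper, rose with both activations. Mt2 on chromosome 8 read 7.63, 5.99 and 7.88 in the controls, 12.7, 11.4 and 13.1 with the drug alone, 13.6, 12.8 and 12.9 with the deletion alone and 13.7, 13.2 and 14.2 with both. All 9 livers with an activation lay above the 3 without. The combined rise was 93.6-fold (log2 6.55 ± 0.55, adjusted p = 0.000138), beside 61.3-fold with the deletion alone and 37.6-fold with the drug alone. Mt1, on the same chromosome, rose 36.3-fold with both, 29.6-fold with the deletion and 20.0-fold with the drug. Neither gene was called between CKO CDDO-Im livers and either singly treated group. Of 11 metallothioneins and zinc transporters tested, 3 rose and 2 fell (median -0.09). The third rise was the zinc importer Slc39a4 (0.84 ± 0.13, adjusted p = 0.00348), named here after its values were seen, with no call for the drug alone (0.00 ± 0.13). The 2 that fell were the zinc exporter Slc30a1 (-0.92 ± 0.23, adjusted p = 0.0340) and the manganese exporter Slc30a10 (-1.27 ± 0.32, adjusted p = 0.0383). Leaving out CKO CDDO-Im replicate 4 raised the adjusted p of Slc30a1 to 0.107, and leaving out CKO CDDO-Im replicate 3 raised that of Slc30a10 to 0.125.

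The promoter windows of the rising genes were read to place these values beside sequence. Windows of 300 bases, from 250 before to 50 after each gene's start, came from RefSeq (GRCm38.p6), and the antioxidant response element core TGACNNNGC was searched on both strands. Of all genes with a window 14.0% held a match, against 17.4% of the genes tested, 22.5% of those that rose with both activations and 18.4% of those that fell. Among the genes that rose at least 4-fold the share was 12.9%. The windows of Cbr3, Osbpl3, Mt1, Nqo1, Slc1a1, Gpx2, Apela, Tafa2 and Slc22a12 held no match, and elements farther from the start are outside them. Windows were sought 1 by 1 for 16 genes, the 12 largest rises named by rule and Srxn1, Gclc, Txnrd1 and Gclm. No window was found for Anxa13 and Gclc, so these genes were not searched. The windows that held a match are printed below in order of the gene's rise, with the match in capitals. Abcc4 had 2 windows that both held a match and Txnrd1 had 3 of which 1 did, and 1 window of each gene is printed. They are Mt2 (chr8:94172368-94172667, plus strand), Abcc4 (chr14:118706170-118706469, minus strand), Srxn1 (chr2:152105274-152105573, plus strand), Txnrd1 (chr10:82858956-82859255, plus strand) and Gclm (chr3:122245307-122245606, plus strand).
Mt2: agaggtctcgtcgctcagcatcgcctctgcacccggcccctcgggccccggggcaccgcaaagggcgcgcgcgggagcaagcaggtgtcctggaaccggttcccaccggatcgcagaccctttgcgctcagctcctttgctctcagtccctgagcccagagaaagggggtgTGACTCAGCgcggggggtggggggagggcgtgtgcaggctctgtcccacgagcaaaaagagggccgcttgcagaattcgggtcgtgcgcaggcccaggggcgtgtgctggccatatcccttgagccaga
Abcc4: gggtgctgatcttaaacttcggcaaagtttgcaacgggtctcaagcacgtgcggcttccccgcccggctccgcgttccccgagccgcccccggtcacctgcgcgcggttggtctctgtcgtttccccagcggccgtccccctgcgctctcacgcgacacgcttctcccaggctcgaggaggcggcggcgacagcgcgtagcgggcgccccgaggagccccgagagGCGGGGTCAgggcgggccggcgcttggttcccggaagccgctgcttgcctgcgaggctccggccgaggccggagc
Srxn1: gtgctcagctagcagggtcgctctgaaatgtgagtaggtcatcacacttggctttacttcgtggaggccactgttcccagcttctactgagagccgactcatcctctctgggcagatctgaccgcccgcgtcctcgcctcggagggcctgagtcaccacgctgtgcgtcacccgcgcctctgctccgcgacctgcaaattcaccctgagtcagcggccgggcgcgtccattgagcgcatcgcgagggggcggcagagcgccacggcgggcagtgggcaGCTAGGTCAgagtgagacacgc
Txnrd1: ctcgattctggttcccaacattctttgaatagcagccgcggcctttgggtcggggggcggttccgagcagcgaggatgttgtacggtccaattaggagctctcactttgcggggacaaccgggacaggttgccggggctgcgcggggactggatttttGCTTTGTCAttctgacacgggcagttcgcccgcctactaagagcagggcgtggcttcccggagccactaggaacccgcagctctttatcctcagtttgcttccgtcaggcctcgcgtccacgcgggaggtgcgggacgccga
Gclm: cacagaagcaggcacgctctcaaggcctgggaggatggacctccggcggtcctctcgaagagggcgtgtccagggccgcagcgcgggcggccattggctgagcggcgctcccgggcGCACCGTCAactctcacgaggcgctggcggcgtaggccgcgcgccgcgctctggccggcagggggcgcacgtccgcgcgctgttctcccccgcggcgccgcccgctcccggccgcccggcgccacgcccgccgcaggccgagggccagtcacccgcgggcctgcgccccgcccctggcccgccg
The match in Mt2 began 79 bases before the gene's start, read on the gene's own strand as TGACTCAGC, and held TGACTCA, the core of the AP-1 site that overlaps this element. The other 4 matches lay on the opposite strand. Those of Abcc4, Txnrd1 and Gclm began 25, 92 and 134 bases before the start, and that of Srxn1 lay after it, at base 28. The Srxn1 window also held 2 copies of TGACTCA on either strand, neither inside the match. These matches describe letters in the windows and do not show binding.

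A first pattern was a rise of the deletion's size in genes on which the drug alone had no called effect. Slc1a1 on chromosome 19, a glutamate and cysteine carrier, read 2.63, 2.66 and 2.63 in the controls, 2.62, 2.63 and 2.63 with the drug alone, 7.13, 7.37 and 6.24 with the deletion alone and 6.96, 7.51 and 7.26 with both. The WT livers sat at the background floor with or without drug, and the CKO livers stood clear of it. Gpx2, a glutathione peroxidase best known from the gut, read 4.31, 6.17 and 4.08 in the controls and 9.55, 8.25 and 9.93 with both. Its change was 4.39 ± 0.55 with both (adjusted p = 0.00143), 4.12 ± 0.55 with the deletion and -0.45 ± 0.55 with the drug (adjusted p = 0.709). Abcc5, an efflux pump of organic anions, rose 15.9-fold with both and 15.6-fold with the deletion, against 1.41-fold with the drug (adjusted p = 0.341). Osbpl3, a lipid-binding protein, changed by 6.59 ± 0.43 with both, 6.56 ± 0.43 with the deletion and 1.31 ± 0.43 with the drug (adjusted p = 0.127). The urate carrier Slc22a12, the apelin receptor ligand Apela and the annexin Anxa13 followed, at 4.26 ± 0.51, 4.34 ± 0.26 and 5.22 ± 0.57 with both. Their changes with the deletion alone were 5.25, 5.56 and 4.80. Apela kept less closely to the deletion's size, reading 8.79, 7.52 and 8.16 with the deletion alone and 7.22, 6.79 and 6.80 with both. That difference of -1.22 ± 0.26 was not called (adjusted p = 0.294).

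Each of those 7 genes was higher with both activations than with the drug alone, at adjusted p-values from 1.76e-05 for Slc1a1 to 0.00372 for Slc22a12. All but Abcc5 were named partly for a large called difference in this same test, so for them the call was fixed by the choice. Osbpl3, Slc1a1, Apela and Slc22a12 lay below a log2 signal of 5 in every WT liver. Gpx2 and Anxa13 did so in every WT liver but WT vehicle replicate 2. All of these genes, and Tafa2 described below, therefore entered the tests only through the CKO livers, where they are high. With the drug alone, values of all but Abcc5 lay below a log2 signal of 5 and near the background floor, so the sizes of these differences were not ranked. Each of the 7 genes kept its call against the drug alone, and its call in the combined comparison, in all 12 fits that left out a liver. These fits describe how firm the calls were and are no separate support. Tafa2, a secreted chemokine-like protein, read 2.55, 2.26 and 2.40 in the controls and 6.04, 6.23 and 7.94 with both, for a change of 4.33 ± 0.83 (adjusted p = 0.0121). CKO vehicle livers were split, at 2.28, 6.29 and 5.11, and the deletion alone was not called (2.16 ± 0.83, adjusted p = 0.156). Its difference from WT CDDO-Im livers (4.30 ± 0.83, adjusted p = 0.0360) was lost when any of 9 of the 12 livers was left out, with the highest adjusted p, 0.120, without WT CDDO-Im replicate 3.

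**Figure D3:**
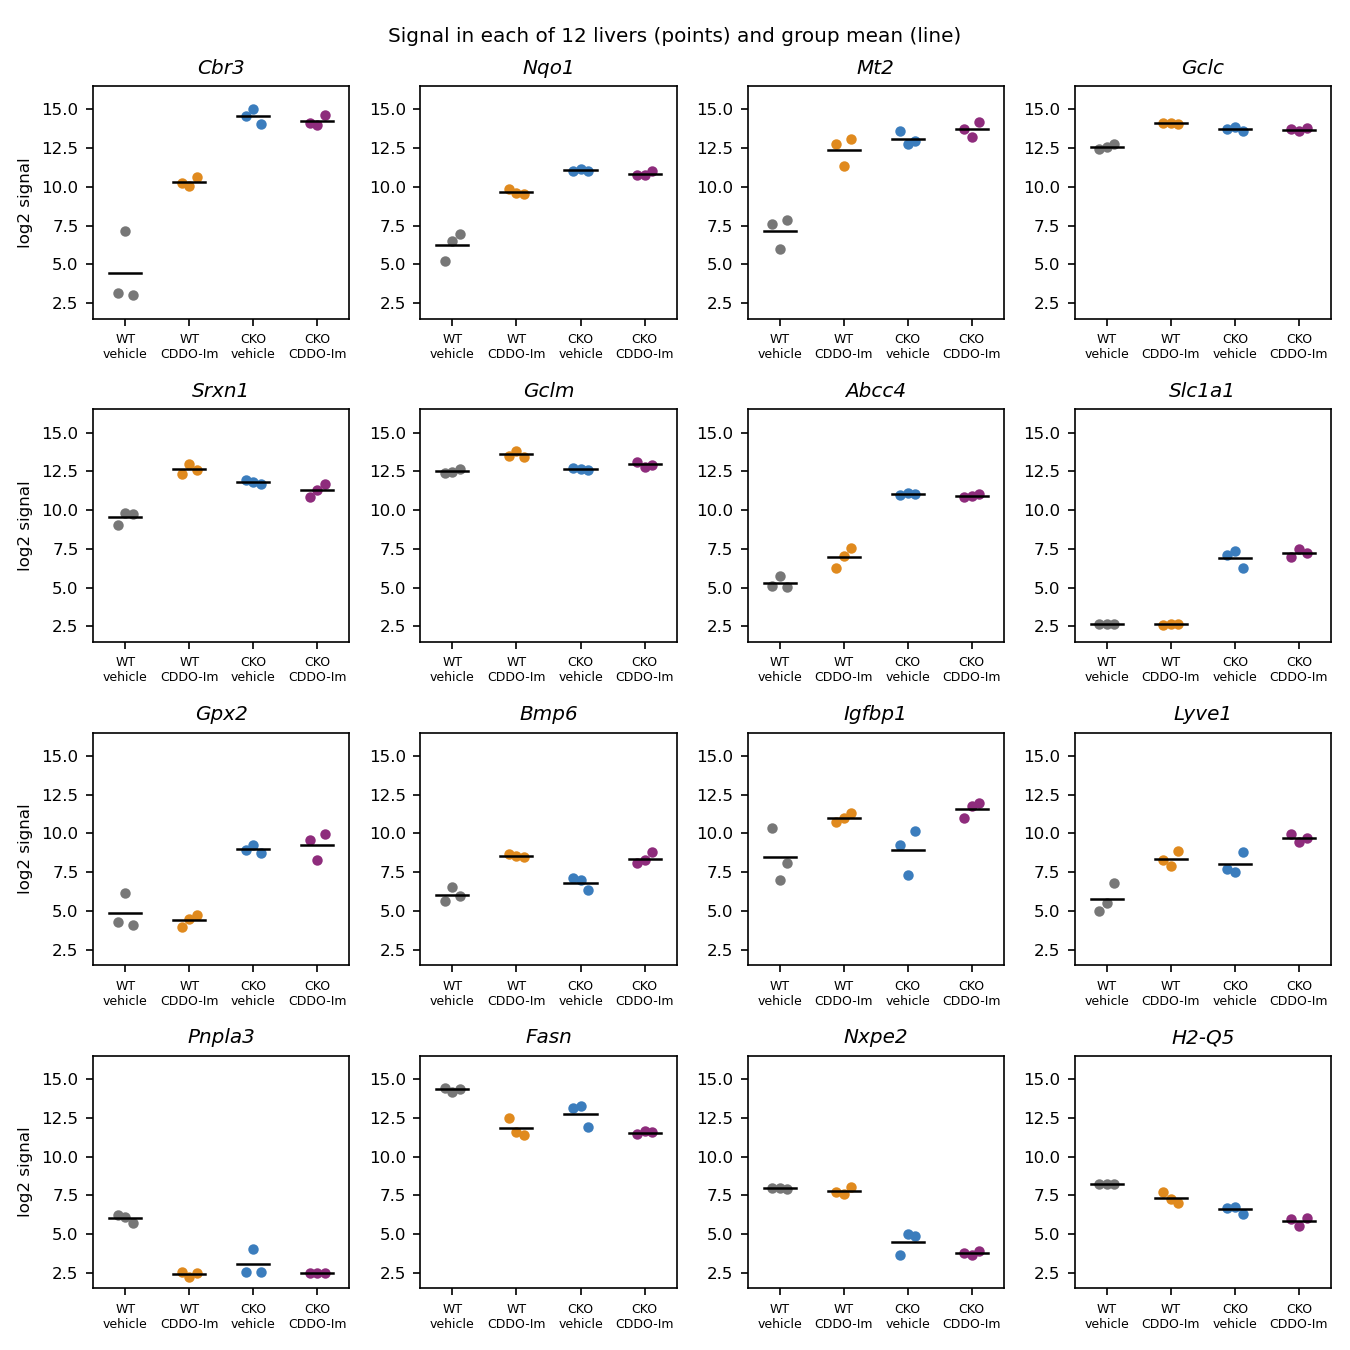
Log2 signal (y axis) of 16 genes in each of the 12 livers (points), by group (x axis), with group means as lines. Slc1a1 and Gpx2 are high in the CKO groups alone among these 4 groups, Nqo1 and Mt2 are high in all groups with an activation, Bmp6 is highest in the CDDO-Im groups, and Pnpla3, Fasn, Nxpe2 and H2-Q5 are lower in livers with both activations than in the controls.

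Export and conjugation genes were among the rises. Abcc4 on chromosome 14, a basolateral efflux pump for bile acids and conjugates, read 5.12, 5.72 and 5.03 in the controls, 6.28, 7.03 and 7.57 with the drug alone, 10.99, 11.09 and 11.07 with the deletion alone and 10.82, 10.89 and 11.05 with both. The 4 groups fell into 3 levels, with the CKO groups overlapping at the top. Abcc4 rose 49.6-fold with both (log2 5.63 ± 0.28, adjusted p = 7.75e-06), 54.3-fold with the deletion and 3.19-fold with the drug. Of 14 efflux transporters tested, 7 rose and 1 fell (median 0.63). The deletion alone gave 4 rises, and the drug alone gave 3 rises and 1 fall. The member that fell was Abcb11, the bile salt export pump (-0.64 ± 0.15, adjusted p = 0.0248), whose adjusted p was 0.0771 without CKO CDDO-Im replicate 4.

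Of 19 glutathione S-transferases, which attach glutathione to electrophiles, 8 rose and none fell (median 0.45), beside 7 with the deletion and 4 with the drug. Gsta2 on chromosome 9 rose 7.64-fold with both, from 10.2, 9.77 and 10.1 to 13.0, 12.9 and 13.0, and 6.85-fold and 4.94-fold with the deletion and the drug. Gstm3 rose 6.71-fold with both and 6.82-fold with the deletion. Without CKO CDDO-Im replicate 4, 5 of the transferases rose. Of 12 genes of glucuronidation and its UDP-glucuronate supply 4 rose. They included Ugdh, which makes UDP-glucuronate (2.11-fold, adjusted p = 0.0012), and Ugp2, which makes its precursor (1.58-fold, adjusted p = 0.0208, or 0.0646 without WT vehicle replicate 3). The other two, named after their values were seen, were the transferases Ugt2b35 (0.52 ± 0.10, adjusted p = 0.0133) and Ugt2b5 (0.24 ± 0.06, adjusted p = 0.0357), the latter lost when any of 8 livers was left out (highest adjusted p 0.0985, without CKO CDDO-Im replicate 4). Of 12 uptake transporters 2 rose and 3 fell (median -0.02), the rises being Slc1a1 and Slc22a12. Slco1a1, an organic anion carrier of the sinusoidal membrane, fell 3.48-fold (adjusted p = 0.00812), beside a 4.46-fold fall with the deletion and no call with the drug (-0.30 ± 0.32, adjusted p = 0.649). Slc22a7, another organic anion carrier, fell 3.63-fold (adjusted p = 0.0342, or 0.107 without CKO CDDO-Im replicate 4), and the third fall was the lactate carrier Slc16a1 (-0.59, adjusted p = 0.0201, or 0.0716 without CKO CDDO-Im replicate 3), named after its values were seen. Without CKO CDDO-Im replicate 3 or replicate 4, 1 uptake transporter fell.

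A second pattern was a rise shared by both single activations that fell short of their sum. In glutathione synthesis and recycling, Gclc and Gsr had a called departure from the sum. Gclc on chromosome 9, the catalytic subunit of the rate-limiting ligase, read 12.5, 12.6 and 12.8 in the controls, 14.1, 14.1 and 14.0 with the drug alone, 13.8, 13.9 and 13.6 with the deletion alone and 13.7, 13.6 and 13.8 with both. All activated livers were above the controls, and the highest were the WT livers given the drug. The combined change was 1.10 ± 0.11 (2.14-fold, adjusted p = 0.000328) where the single changes sum to 2.64. The departure of -1.54 ± 0.15 was called (adjusted p = 0.0052). Of 12 genes of glutathione synthesis and recycling 5 rose (median 0.37), namely Gclc, Gsr (glutathione reductase, 1.66-fold, adjusted p = 0.00674), Gclm, Gss (the second synthesis step) and Gpx4 (lipid peroxide reduction). Gss (0.56 ± 0.13, adjusted p = 0.0298) and Gpx4 (0.68 ± 0.10, adjusted p = 0.00374) were named after their values were seen. Without CKO CDDO-Im replicate 3 or 4, or WT vehicle replicate 1 or 2, 3 of the 5 were called, and the adjusted p of Gss was 0.0984 without CKO CDDO-Im replicate 4.

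The thioredoxin branch behaved in a like way at Txnrd1 and Srxn1. Txnrd1, thioredoxin reductase, rose by 1.09 ± 0.13 with both (adjusted p = 0.0011), 1.17 ± 0.13 with the deletion and 1.40 ± 0.13 with the drug. Its departure of -1.48 ± 0.18 (adjusted p = 0.0138) was lost when any of 3 livers was left out, with the highest adjusted p of 0.0643 without CKO CDDO-Im replicate 3. Srxn1 on chromosome 2, sulfiredoxin, which restores oxidised peroxiredoxins, read 9.05, 9.84 and 9.76 in the controls, 12.3, 12.9 and 12.6 with the drug alone, 11.9, 11.8 and 11.7 with the deletion alone and 10.9, 11.3 and 11.7 with both. All 3 livers with both activations lay below all 3 with the drug alone and above all 3 without activation. The rise was 3.34-fold with both, 4.77-fold with the deletion and 8.40-fold with the drug. The departure from the sum was -3.59 ± 0.36 (adjusted p = 0.0052) and was called in every fit that left out a liver. Of 17 thioredoxin, peroxiredoxin and peroxide genes 4 rose and none fell (median 0.15). Beside Txnrd1, Srxn1 and Gpx2 these included Txn1, thioredoxin (0.40 ± 0.09, adjusted p = 0.0242), named after its values were seen, with an adjusted p of 0.0710 without WT vehicle replicate 3.

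**Figure D4:**
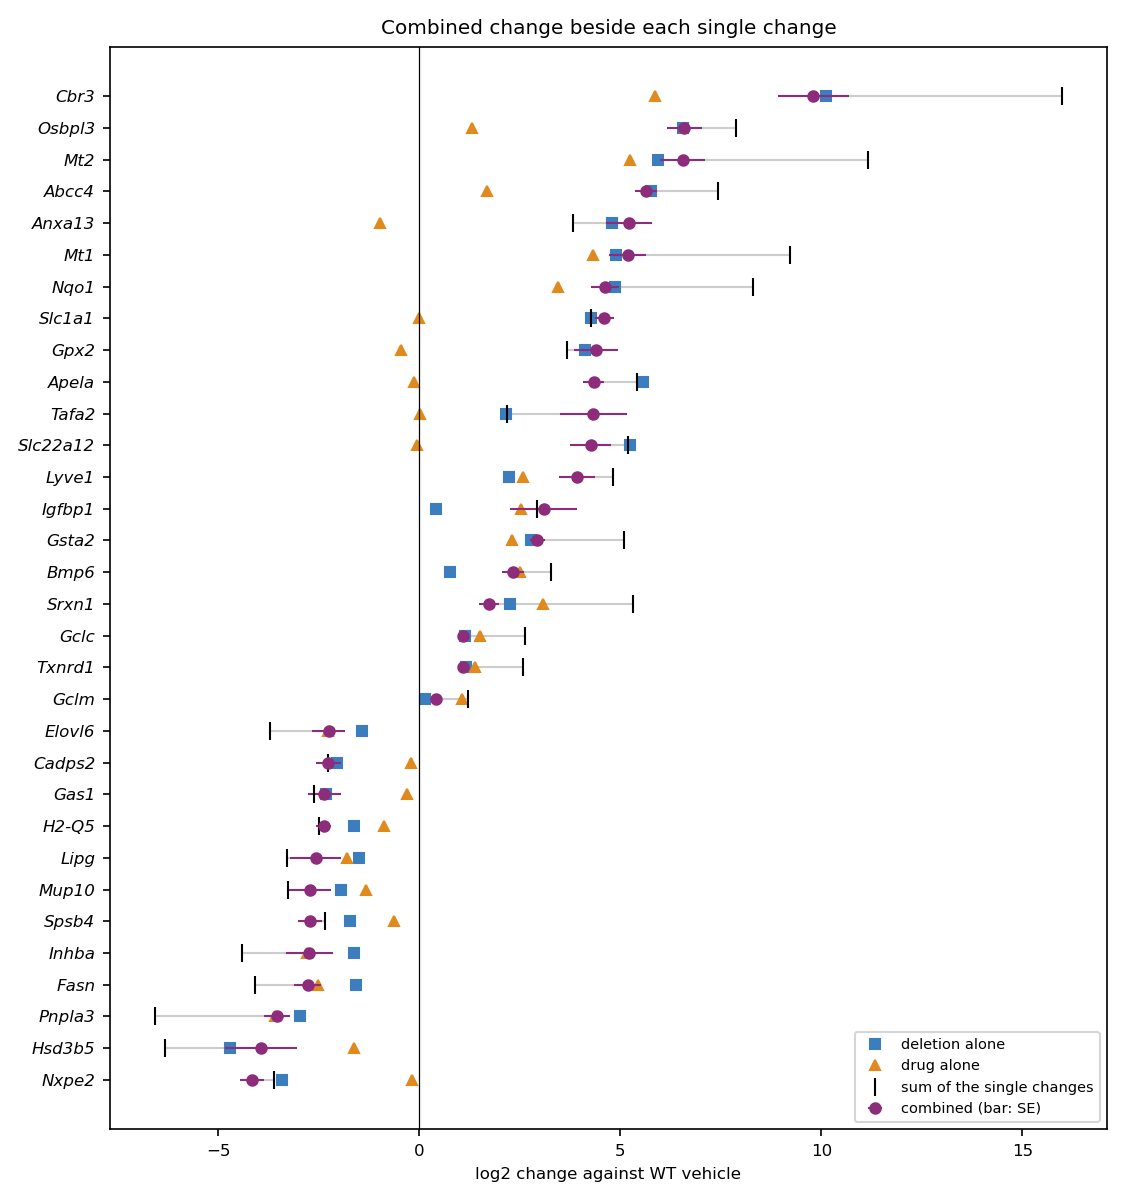
Log2 change against WT vehicle livers (x axis) of 32 genes (rows) with both activations (circles, bar 1 SE), with the deletion alone (squares), with the drug alone (triangles) and as the sum of the single changes (ticks). The circles lie on or near the squares for Osbpl3, Abcc4, Slc1a1 and Gpx2, and short of the ticks for Mt2, Mt1, Nqo1, Srxn1, Gclc and Pnpla3.

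For Srxn1, Gclm and Mafg, which rose with both activations, the combined level was called below the level with the drug alone. For Srxn1 the difference between both activations and the drug alone was -1.33 ± 0.25 (adjusted p = 0.0341). Gclm on chromosome 3, the modifier subunit of the ligase, read 12.4, 12.5 and 12.7 in the controls, 13.5, 13.8 and 13.5 with the drug alone, 12.7, 12.7 and 12.6 with the deletion alone and 13.1, 12.8 and 12.9 with both, a difference of -0.65 ± 0.11 between the drug-treated genotypes (adjusted p = 0.0224). Its combined rise was 1.34-fold (adjusted p = 0.0463), lost when any of 10 livers was left out, with the highest adjusted p of 0.125 without CKO CDDO-Im replicate 2. Mafg, a small Maf partner of Nrf2, differed by -0.47 ± 0.09 (adjusted p = 0.0320). Without WT CDDO-Im replicate 3 the adjusted p of the Srxn1 difference was 0.134, and without CKO CDDO-Im replicate 3 those of Gclm and Mafg were 0.0852 and 0.106. These 3 differences were lost in 8, 4 and 5 of the 12 fits that left out a liver. The departure from the sum was called for Srxn1 and Mafg and not for Gclm (adjusted p = 0.0885), whose change with the deletion alone was 0.15 (adjusted p = 0.473). Dennd4c, named after its values were seen, had a called departure and was also lower with both than with the drug alone (-0.65 ± 0.10, adjusted p = 0.0183), and its combined change was not called (0.36 ± 0.10, adjusted p = 0.0595).

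Among 11 regulators of the Keap1-Nrf2 pathway itself, 2 rose and 2 fell. Nfe2l2 fell 2.02-fold with both (adjusted p = 0.00215), from 10.97, 11.24 and 11.14 to 10.25, 9.97 and 10.08, with no overlap between the groups. Its change was -0.76 ± 0.14 with the deletion (adjusted p = 0.0102) and -0.52 ± 0.14 with the drug (adjusted p = 0.0640). Btrc, a substrate receptor of another ubiquitin ligase that binds Nrf2, fell 1.47-fold (adjusted p = 0.0141). Mafg rose 1.47-fold (adjusted p = 0.00476), and Bach1, a repressor at antioxidant response elements, rose 1.59-fold (adjusted p = 0.0197, or 0.0697 without CKO CDDO-Im replicate 3). Hmox1, heme oxygenase, was not called with both (0.73 ± 0.29, adjusted p = 0.141). It read 6.57, 6.91 and 6.31 in the controls, 7.81, 8.32 and 8.08 with the drug alone and 7.77, 6.62 and 7.60 with both. Of 14 genes of heme breakdown, heme synthesis and ferritin 2 rose and 1 fell with both. Blvrb, biliverdin reductase B, rose 3.29-fold (adjusted p = 2.43e-05), beside 3.03-fold and 1.99-fold with the deletion and the drug. Slc40a1, the iron exporter ferroportin, rose 1.51-fold (adjusted p = 0.00348). The fall was Alad, of heme synthesis (-0.51 ± 0.11, adjusted p = 0.0188, or 0.0673 without CKO CDDO-Im replicate 4).

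Bmp6, Bhlhe40 and the activin subunit genes Inhba and Inhbe changed with both activations and with the drug, and the deletion alone did not call them. Bmp6 on chromosome 13, a ligand that signals iron status to hepatocytes and comes mainly from liver endothelium, read 5.64, 6.51 and 5.96 in the controls, 8.63, 8.51 and 8.50 with the drug alone, 7.12, 6.96 and 6.33 with the deletion alone and 8.06, 8.27 and 8.78 with both. Every drug-treated liver lay above every vehicle liver. Bmp6 rose 5.04-fold with both (adjusted p = 0.000888) and 5.70-fold with the drug, against 1.70-fold with the deletion (adjusted p = 0.118). CKO CDDO-Im livers differed from CKO vehicle livers by 1.57 ± 0.26, which was not called (adjusted p = 0.225). Bhlhe40, a repressor linked to the clock, fell 2.86-fold with both (adjusted p = 0.00808), beside changes of -1.38 ± 0.27 with the drug (adjusted p = 0.0227, or 0.0922 without WT CDDO-Im replicate 4) and -0.46 ± 0.27 with the deletion (adjusted p = 0.346). Inhba changed by -2.73 ± 0.59 with both (adjusted p = 0.0201), -2.79 ± 0.59 with the drug (adjusted p = 0.0327) and -1.62 ± 0.59 with the deletion (adjusted p = 0.138). Inhbe changed by -1.82 ± 0.41 with both (adjusted p = 0.0225), -1.94 ± 0.41 with the drug (adjusted p = 0.0297) and -0.47 ± 0.41 with the deletion (adjusted p = 0.543). The combined calls were lost without WT vehicle replicate 2 for Inhba (adjusted p = 0.0695) and without CKO CDDO-Im replicate 3 for Inhbe (adjusted p = 0.0775). The calls with the drug were lost for both without WT CDDO-Im replicate 4 (adjusted p = 0.104 for each). Between CKO CDDO-Im and CKO vehicle livers no gene was called. A larger change with both than with the deletion is therefore not shown for Bmp6, Bhlhe40, Inhba or Inhbe.

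Inhba and Inhbe belong to a list of 15 growth factor and IGF axis genes. The activin subunit genes Inhbb and Inhbc are also in it and were not called with both. Of the list, 1 rose and 4 fell with both activations (median -0.30). With the deletion alone 2 fell, and with the drug alone 2 fell. The other two falls, named after their values were seen, were Ghr, the growth hormone receptor (-0.59 ± 0.10, adjusted p = 0.0080), also called with the deletion (-0.76, adjusted p = 0.00264), and Lifr, a cytokine receptor subunit (-0.89 ± 0.22, adjusted p = 0.0323, or 0.106 without CKO CDDO-Im replicate 4). Without WT vehicle replicate 2 or CKO CDDO-Im replicate 3, 1 of the list fell, and without CKO CDDO-Im replicate 4, 2 fell. The rise was Igfbp1, an IGF-binding protein secreted by hepatocytes, at 8.52-fold with both (adjusted p = 0.0481), with WT vehicle livers spread over 10.4, 7.01 and 8.11. Neither the drug (2.52 ± 0.83, adjusted p = 0.128) nor the deletion (0.41 ± 0.83, adjusted p = 0.817) was called for it alone. Its combined call was lost when any of 9 livers was left out (highest adjusted p 0.137, without WT vehicle replicate 2).

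Lipid synthesis genes fell, and by count their list held more falls than any other of the 32 described, which differ in size. Over all genes tested the share that fell was 4.73%. Of 25 genes of fatty acid and triglyceride synthesis 11 fell and none rose (median -0.80 against -0.03 over all genes), beside 7 falls with the deletion and 8 with the drug. Fasn on chromosome 11, fatty acid synthase, read 14.4, 14.2 and 14.4 in the controls, 12.5, 11.6 and 11.4 with the drug alone, 13.1, 13.3 and 11.9 with the deletion alone and 11.4, 11.7 and 11.6 with both. The 3 livers with both activations were tightly grouped, and the control livers stood apart from all others. Fasn fell 6.86-fold with both (adjusted p = 0.00137), 2.96-fold with the deletion (adjusted p = 0.0246, or 0.0777 without WT vehicle replicate 1) and 5.69-fold with the drug. Pnpla3 on chromosome 15, a lipid droplet lipase, read 6.20, 6.11 and 5.74 in the controls and 2.49, 2.46 and 2.46, at the background floor, with both (-3.54 ± 0.32, adjusted p = 0.000225). WT CDDO-Im livers were at the floor too, at 2.55, 2.26 and 2.46, so the sum of the single changes lies below what the array can show. Only the controls lay above a log2 signal of 5, so Pnpla3 entered the tests only through the group where it is high. Its direction was therefore fixed by the filter. Elovl6, which lengthens fatty acids, fell 4.77-fold with both (adjusted p = 0.00958). Pklr, liver pyruvate kinase, whose gene is regulated with lipogenesis, fell 4.60-fold (adjusted p = 0.000454).

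The lipogenic count depended on single livers, being 5 without CKO CDDO-Im replicate 3 and 6 without CKO CDDO-Im replicate 4, WT vehicle replicate 1 or WT vehicle replicate 2. Of 20 genes of cholesterol synthesis and uptake 5 fell (median -0.78), beside 2 with the deletion and none with the drug. They were Fdps (farnesyl diphosphate synthase, from 12.2, 10.7 and 10.5 to 9.44, 8.64 and 9.36, adjusted p = 0.0267, or 0.0923 without CKO CDDO-Im replicate 3), Insig1 (sterol sensing, 2.93-fold, adjusted p = 0.0157, or 0.0569 without CKO CDDO-Im replicate 4) and, named after their values were seen, Stard4, Sc5d and Dhcr7 (-1.38, -1.21 and -1.11). Stard4 was lost in 2 fits that left out a liver (highest adjusted p 0.0543, without CKO CDDO-Im replicate 3), Sc5d in 4 (0.0919, without CKO CDDO-Im replicate 4) and Dhcr7 in 10 (0.112, without CKO CDDO-Im replicate 2). Without CKO CDDO-Im replicate 3 or replicate 4, 1 of the 5 was called, and without WT vehicle replicate 1 there were 2. That control liver had a list mean of 10.8, above 9.85 and 9.73 in the other WT vehicle livers. Plin2, a lipid droplet coat protein, was the 1 fall among 27 genes of fatty acid oxidation and PPAR alpha targets (2.14-fold, adjusted p = 0.00169). That count is near the share of falls over all genes tested, 4.73%.

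**Figure D5:**
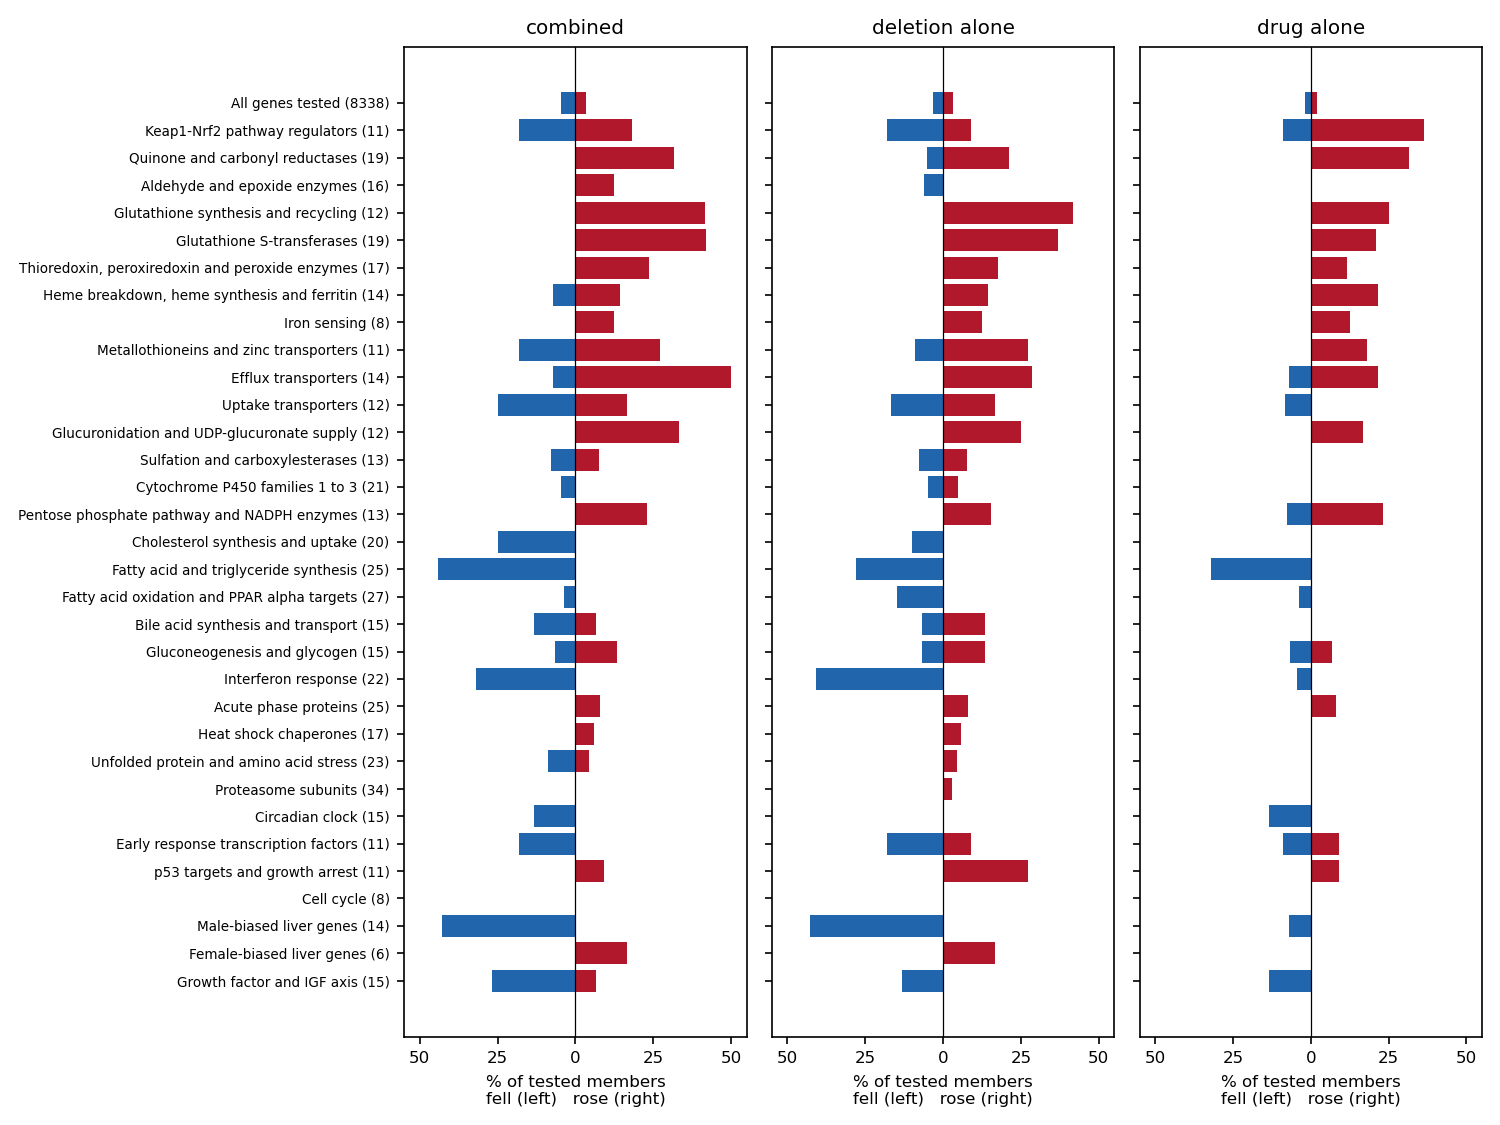
Share of the tested members of each gene list that rose (red, to the right) or fell (blue, to the left) in the combined comparison, with the deletion alone and with the drug alone (x axis, percent), with the number of tested members in parentheses and all 8338 genes in the top row. Glutathione S-transferases, efflux transporters and quinone reductases lie to the right in all 3 panels, fatty acid and triglyceride synthesis lies to the left in all 3, and the interferon response and male-biased liver genes lie to the left with both activations and with the deletion.

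Interferon response genes also fell. Of 22 tested 7 fell and none rose (median -0.87), beside 9 with the deletion and 1 with the drug. Usp18, which restrains interferon receptor signalling, read 10.0, 10.6 and 10.1 in the controls and 8.13, 9.09 and 7.92 with both, a 3.63-fold fall (adjusted p = 0.00392). Rtp4, an interferon-induced chaperone, fell 3.64-fold (adjusted p = 0.0182, or 0.0629 without WT vehicle replicate 2). H2-Q5, a class I histocompatibility gene with close paralogs that probes may share, read 8.22, 8.21 and 8.22 in the controls, 7.73, 7.27 and 7.03 with the drug alone, 6.70, 6.76 and 6.30 with the deletion alone and 5.97, 5.55 and 6.01 with both. The 4 groups did not overlap and stood in that order. The combined fall was 5.19-fold (adjusted p = 9.22e-05), and the departure from the sum of the single changes was 0.12 ± 0.27 (adjusted p = 0.915). Without CKO CDDO-Im replicate 4 or WT vehicle replicate 2, 4 of the 7 interferon genes were called.

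Of 14 genes whose liver expression is higher in males than in females 6 fell (median -1.28), beside 6 with the deletion and 1 with the drug, all mice here being male. Slco1a1, above, is among them, as is Hsd3b5, a steroid dehydrogenase of male mouse liver, which read 13.2, 13.5 and 12.5 in the controls and 7.49, 10.4 and 9.51 with both. Its 15.3-fold fall (adjusted p = 0.0238) had an adjusted p of 0.0735 without WT vehicle replicate 2. Without CKO CDDO-Im replicate 2 or 4, 2 of the 6 were called, and 3 were when WT vehicle replicate 1, 2 or 3 was left out, 1 at a time. Mup10, a major urinary protein gene from a family of near-identical copies, fell 6.56-fold (adjusted p = 0.0118). Nxpe2 on chromosome 9 had the largest fall of the named genes (-4.16 ± 0.29, adjusted p = 3.3e-05), reading 7.99, 7.94 and 7.89 in the controls, 7.71, 7.56 and 8.01 with the drug alone, 3.67, 5.02 and 4.87 with the deletion alone and 3.77, 3.65 and 3.92 with both. Its values with both lay near the background floor, so the size of the fall depends on the background correction. With the drug alone its values overlapped the controls (-0.18 ± 0.29, adjusted p = 0.785), and the difference between the drug-treated genotypes was called (-3.98 ± 0.29, adjusted p = 0.000115). Other named falls were Gas1, a membrane protein that arrests growth (5.14-fold, adjusted p = 0.00765), the vesicle priming factor Cadps2 (4.79-fold, adjusted p = 0.00195), and Spsb4, a ubiquitin ligase adaptor (-2.72 ± 0.30, adjusted p = 0.000782).

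Other pathways moved in few members. Of 34 proteasome subunits and 8 cell cycle genes none were called with both activations by limma, the largest difference among the subunits being Psmb5 (0.40 ± 0.12, adjusted p = 0.0748). Of 13 genes of the pentose phosphate pathway and NADPH supply 3 rose, including Mthfd1l, of mitochondrial folate metabolism (2.92 ± 0.32, adjusted p = 0.000749), and Pgd (1.83-fold, adjusted p = 0.00408). The third, H6pd, was named after its values were seen (0.36 ± 0.10, adjusted p = 0.0480) and lost its call when any of the 12 livers was left out (highest adjusted p 0.122, without WT vehicle replicate 3). Among 21 cytochrome P450 genes of families 1 to 3, Cyp2u1 fell (2.40-fold, adjusted p = 0.0239, or 0.0718 without CKO CDDO-Im replicate 2). That count is near the share of falls over all genes tested, 4.73%, and Cyp2u1 is also in the list of male-biased genes above. Among 11 p53 targets, Ddit4, an inhibitor of mTORC1, rose 12.1-fold (adjusted p = 0.00765). Of 25 acute phase genes 2 rose, the transcription factor Cebpd (4.23-fold, adjusted p = 0.0028) and the orosomucoid gene Orm3 (3.70-fold, adjusted p = 0.0218, or 0.0768 without CKO CDDO-Im replicate 3).

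Markers of other liver cells were read beside these results. Of 12 endothelial markers 2 rose and none fell. Lyve1, a hyaluronan receptor of sinusoidal and lymphatic endothelium, read 5.01, 5.49 and 6.77 in the controls and 9.93, 9.43 and 9.69 with both, a 15.2-fold rise (adjusted p = 0.0011). Stab1, another sinusoidal receptor, rose 1.45-fold (adjusted p = 0.0444) and lost its call when any of 9 livers was left out (highest adjusted p 0.123, without CKO CDDO-Im replicate 4). The mean log2 signal of the 12 markers was 8.04 to 8.21 in the controls and 8.16 to 8.51 with both, and the median change of the list was -0.24. Of 10 macrophage and Kupffer cell markers 2 rose, Marco (2.28 ± 0.46, adjusted p = 0.0141) and Cd5l (1.77-fold, adjusted p = 0.0451), and neither was called without CKO CDDO-Im replicate 3. The list mean was 8.97 to 9.99 in the controls and 9.64 to 10.1 with both. Of 9 hepatocyte markers 1 rose, Tdo2, which opens tryptophan breakdown (1.30-fold, adjusted p = 0.0105). None of the 10 stellate cell and fibroblast markers was called, the largest difference being Acta2 (-0.90 ± 0.46, adjusted p = 0.253). The part that shifts between cell types play in the results above was not tested.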

How the data were processed

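The deposited values are log2 signals of 45101 probe sets on 12 arrays, which the authors made with GCRMA (2.12.1, run in R 2.7.0, as the submitters' processing notes state). The options for GCRMA were not given in the sources used here. Gene names of probe sets came from the platform's annotation (34945 name 1 gene, 932 several and 9160 none; 64 controls were left out), and the brightest stood for each of 18193 genes. Using limma 3.58.1 (R 4.3.3), 1 linear model with a mean for each of 4 groups took in all 12 arrays (8 residual and 2.32 prior degrees of freedom), with two-sided tests and Benjamini-Hochberg adjustment over 8338 genes. The number of arrays limits the precision. On simulated data for the combined comparison, 84% of changes of 1 and 98% of changes of 2 (log2, 100 probe sets each of 8000) were recovered. The simulation drew independent normal noise with each probe set's own spread and put the same change in both CKO groups. It held no differences shared by many genes of a liver, so these shares need not hold for the real arrays.

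Genes were named by rule: the 12 largest called rises and falls without overlap between groups, the 2 largest called rises and falls of each of 42 lists (720 genes listed, 545 tested) or else the largest change, the 6 largest called differences each way in the direct tests, and 14 fixed genes. Symbols of predicted genes and clones were left out. The members, lists and rule were chosen with earlier results of these data known. Replicate numbers showed no clear pairing of the livers. Deviations of same-numbered livers correlated from -0.166 to 0.146 over 12 pairs (median 0.060). Those of livers with different numbers correlated from -0.251 to 0.254 over 42 pairs (median 0.007). This check cannot exclude a shared batch or processing order, on which the labels are silent.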

Additional observations from a re-analysis of the deposited data

Results flagged for a closer look

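The test of whether CDDO-Im acted differently in the 2 genotypes called 23 genes, the same test that asks whether the combined change departs from the sum of the single changes. In each of them the combined change was smaller in size than that sum. Departures on the log2 scale were -4.62 for Mt2, -4.03 for Mt1, -3.68 for Nqo1, -3.59 for Srxn1, -2.15 for Gsta2 and -2.05 for Ppfibp2, a liprin scaffold protein, all of which rose. Among falling genes the departures were 3.02 for Pnpla3 and 1.70 for Tsc22d1, a leucine zipper protein induced by TGF-beta. Tsc22d1 read 12.4, 12.8 and 13.2 in the control (WT vehicle) livers, 10.4, 10.7 and 10.4 with the drug alone, 11.7, 11.5 and 11.2 with the deletion alone and 10.7, 11.2 and 10.8 with both. For Pnpla3 the WT CDDO-Im and CKO CDDO-Im livers lay at the background floor, and the gene entered the tests only through the controls. For Mt2 and Mt1 the mean of the controls plus the sum of the single changes (11.2 and 9.21) lies above the highest signal of any array (16.69 to 17.01), so the sum could not have been shown and the sizes of these departures are not comparable with the others. Of the 15 named genes with a called departure, Srxn1 and Gclc kept it in every fit that left out 1 liver. None of the 15 was called under all alternatives. Those of Mt2, Mt1, Nqo1, Pnpla3 and Tsc22d1 were lost in 9, 10, 8, 10 and 11 of the 12 such fits, and those of Gsta2 and Ppfibp2 in 2 each. The highest adjusted p among these fits was 0.136 for Gsr, without WT vehicle replicate 1.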

How the results depend on the processing

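No named gene reversed its direction under the alternatives run. Of the 86 named genes called in the combined comparison, 41 were called under all of them and 55 in every fit that left out 1 liver. Without the filter on low signal the calls were 301 (combined), 232 (deletion), 124 (drug), 1 (CKO CDDO-Im against CKO vehicle), 29 (CKO CDDO-Im against WT CDDO-Im) and 7 (departure from the sum), over 18193 genes. With only the arrays compared they were 373, 223, 85 and 56 for combined, deletion, drug and CKO CDDO-Im against WT CDDO-Im. Testing every probe set gave 828 (deletion), 526 (drug), 195 (CKO CDDO-Im against WT CDDO-Im) and 42 (departure). Leaving out 1 liver at a time gave 358 to 671 (combined), 275 to 537 (deletion, lowest without CKO vehicle replicate 3), 106 to 318 (drug, lowest without WT CDDO-Im replicate 4), 0 to 1, 32 to 139 and 2 to 31 in the same order; 1 gene was called against CKO vehicle without CKO vehicle replicate 5. With the replicate number as a block the calls were 351, 55, 114, 2, 42 and 3, and the departures of Srxn1 and Gclc were not called in that fit. The numbers showed no clear pairing of the livers, as 3 of 12 same-numbered pairs and 8 of 42 other pairs correlated above 0.1. Centring moved the share of rises among combined calls from 42.3% to 57.0%, with a shift of all genes of -0.05. The fits lose degrees of freedom with each liver or block; other causes were not tested.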

Other observations

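Ces1g, a carboxylesterase, rose 5.20-fold with both activations (adjusted p = 0.0151, or 0.0510 without CKO CDDO-Im replicate 3), and Sult5a1, a sulfotransferase, fell 2.34-fold (adjusted p = 0.0160, or 0.0550 without CKO CDDO-Im replicate 4). Ppp1r3c, a glycogen-targeting phosphatase subunit, rose 2.90-fold (adjusted p = 0.0117), and Gbe1, the glycogen branching enzyme, rose 1.57-fold (adjusted p = 0.00752). Slc35e3, a solute carrier of unsettled substrate, read 9.28, 9.61 and 9.77 with the drug alone and 7.76, 7.28 and 6.99 with both, while the controls read 8.03, 8.29 and 6.80. Its difference between the drug-treated genotypes was -2.21 ± 0.36 (adjusted p = 0.0185), and 0.0836 without WT CDDO-Im replicate 3. Lcn2, the tested neutrophil marker and also an acute phase gene of hepatocytes, was widely spread, from 6.28 to 9.31 in the control (WT vehicle) livers and from 7.99 to 9.95 with both. With the deletion alone it read 13.35, 9.45 and 9.56, the highest being CKO vehicle replicate 3.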
